A study of Mus musculus with 2 samples.

Results

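The IFIT and OAS genes are interferon-induced antiviral effectors, and 10 of them were followed here, cell by cell, in the RNA of the retinal pigment epithelium (RPE) of mice. The 4 IFIT genes were Ifit1, Ifit2, Ifit3 and Ifit3b, and the 6 OAS genes were Oas1a, Oas1g, Oas2, Oas3, Oasl1 and Oasl2. They were chosen by name, and the rule uses none of their measured values, but the choice was made with earlier results of these data known. All 10 were found among the 32285 genes of the files.

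Interferons bind receptors at the cell surface, whose kinases activate transcription factors such as Stat2, which joins Irf9 to bind a response element in the promoters of induced genes. IFIT proteins are cytoplasmic and bind viral RNA or the translation machinery. Several OAS proteins are enzymes that sense double-stranded RNA and make short chains of adenylate, a signal within the cell. The RPE is the pigmented monolayer behind the photoreceptors, and such genes are known to be inducible in it.

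The study injected 1 µl of PBS (control) or of 100 ng/µl doxorubicin (Dox), a DNA-damaging drug used here at a low dose to bring on senescence, under the retina of C57BL/6J mice aged 3 months. The RPE, choroid and sclera were dissociated 7 days later, and each condition gave 1 library, a pool of 5 mice (10 eyes). Neither condition has a replicate library, so no test between the conditions was possible, and every interval below covers the counting error of unique molecular identifiers (UMIs) only. The mice of a pool cannot be told apart.

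After filtering, 20180 control and 15426 Dox cells remained, with a median of 4495 and 4995 UMIs. RPE cells were those with at least 10 UMIs of Rpe65, the isomerase of the visual cycle, which gave 1526 control and 1630 Dox cells. All 11 RPE markers were detected in them, at a summed level of 102745.8 CPM (UMIs of a gene per 1000000 UMIs) in control and 103442.2 CPM in Dox. Rpe65 is itself among these 11, so its detection was fixed by the rule. It gave 4966 CPM of the control sum and 4867 CPM of the Dox sum. The RPE cells were divided at 1000 CPM of Serpina3n, a secreted serine protease inhibitor, into 1511 control and 1422 Dox Serpina3n-low cells and 15 control and 208 Dox Serpina3n-high cells. The level of Serpina3n itself was therefore fixed by the division, and the cell numbers are a description. The 2 libraries shared 441 cell barcodes, 3 of which marked an RPE cell in both.

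The 4 IFIT genes lie together within 99.3 kb of chromosome 19 (mm10), and the OAS genes lie in 2 places on chromosome 5, with Oasl1 and Oasl2 apart from the others. Ifit1 spans chr19:34640871-34650009 and Ifit2 chr19:34550694-34576419, both on the plus strand. Ifit3 spans chr19:34583531-34588731 and Ifit3b chr19:34607970-34613401, both on the plus strand. Oas1a spans chr5:120896256-120907521 and Oas1g chr5:120876142-120887613, both on the minus strand. Oas2 spans chr5:120730333-120749853 and Oas3 chr5:120753098-120777661 on the minus strand, and Oasl1 spans chr5:114923240-114937915 and Oasl2 chr5:114896936-114912234 on the plus strand. Ifit3 and Ifit3b, and Oas1a and Oas1g, are neighboring copies: 18.6% of the 150-base windows of the Ifit3 transcript also occur in Ifit3b, and 31.7% of those of Oas1a also occur in Oas1g. Reads from such stretches cannot be placed in 1 gene, so the share of counts between the copies is uncertain. No window of Ifit2, Oas2, Oas3, Oasl1 or Oasl2 occurs in another IFIT or OAS transcript.

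The promoters were searched on both strands for the core of the interferon-stimulated response element, GAAANNGAAA, or TTTCNNTTTC on the other strand. In windows from 250 bases before to 50 bases after the start site, 1131 of 32851 mouse promoters (3.44%) hold this core. Among the members, 6 of the 9 genes with a promoter in the RefSeq table (GRCm38.p6) hold it, 3 of 4 IFIT and 3 of 5 OAS genes. Overlapping matches were counted separately. The stretches around the matches are shown because near-copies can be compared base by base in them, written along the gene with the matches in capitals.
Ifit1, chr19:34640775-34640823, plus strand: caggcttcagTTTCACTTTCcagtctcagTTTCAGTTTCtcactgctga
Ifit3, chr19:34583363-34583426, plus strand: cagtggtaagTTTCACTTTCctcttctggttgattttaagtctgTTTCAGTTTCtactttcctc
Ifit3b, chr19:34607759-34607822, plus strand: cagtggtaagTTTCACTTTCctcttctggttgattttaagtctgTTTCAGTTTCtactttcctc
Oas1a, chr5:120907520-120907555, minus strand: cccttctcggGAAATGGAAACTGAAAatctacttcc
Oas1g, chr5:120887606-120887641, minus strand: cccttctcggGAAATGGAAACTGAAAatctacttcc
Oas3, chr5:120777715-120777744, minus strand: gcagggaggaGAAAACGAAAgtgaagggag
Ifit3 and Ifit3b carry the same 64 bases, and Oas1a and Oas1g the same 36. Ifit1 and Ifit3 each hold 2 matches on the opposite strand, the first starting 104 and 156 bases before the start site. The 2 matches of Oas1a overlap by 4 bases and start 20 and 14 bases before its start site. Ifit2, Oasl1 and Oasl2 have no match of these letters in this window, and Oas2 has no entry.

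In RPE cells the levels of Ifit3, Ifit3b and Ifit1 were higher in Dox than in control, Oasl2 just passed the 1.5-fold limit, and Ifit2 did not differ beyond counting error. Ifit3, whose human counterpart partners IFIT1, measured 63.4 CPM (95% interval, 60.4 to 66.5) in the control library. In the Dox library it measured 165 CPM (160.3 to 169). Its log2 ratio was 1.38 (1.30 to 1.46). Ifit3b, its near-copy, was at 24.2 in control against 56.2 CPM in Dox, for a log2 ratio of 1.21 (1.08 to 1.35). Ifit1, which recognizes the incompletely capped ends of viral RNA, was at 18.6 in control against 33.7 CPM in Dox, for a log2 ratio of 0.86 (0.70 to 1.02). Intervals of the 2 libraries did not overlap for any of these 3 genes.

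Ifit2, another RNA-binding family member, was at 4.67 in control against 4.23 CPM in Dox, for a log2 ratio of -0.14 (-0.51 to 0.22). Oasl2, an OAS-like protein with ubiquitin-like domains, was at 4.52 in control against 6.83 CPM in Dox, for a log2 ratio of 0.59 (0.26 to 0.93). The other 5 OAS genes had under 20 UMIs over all RPE cells of both libraries. From control to Dox, the UMIs were 2 and 12 for Oas1a, 4 and 14 for Oas1g, 4 and 11 for Oasl1, 1 and 2 for Oas3, and 0 and 4 for Oas2. The count of 0 for Oas2 allows a level of up to 0.114 CPM in control. At these counts a difference between the libraries in Oas1g, Oasl1, Oas2 or Oas3 was not detectable, and the interval of Oas1a ran from 0.17 to 5.54 on the log2 scale.

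Of the 5 members with at least 20 UMIs over both libraries, 4 were at least 1.5-fold higher in Dox and none was as far lower, beside 2.93% of the 14215 genes measured as deeply that were this much higher. Their median log2 ratio was 0.86, beside -0.02 over all those genes. Summed, the IFIT genes rested on 2917 control and 8078 Dox UMIs, at 111 and 259 CPM, and the OAS genes on 130 and 256 UMIs, at 4.94 and 8.21 CPM. The log2 ratio was 1.22 (1.16 to 1.29) for IFIT and 0.73 (0.42 to 1.05) for OAS.

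**Figure D1:**
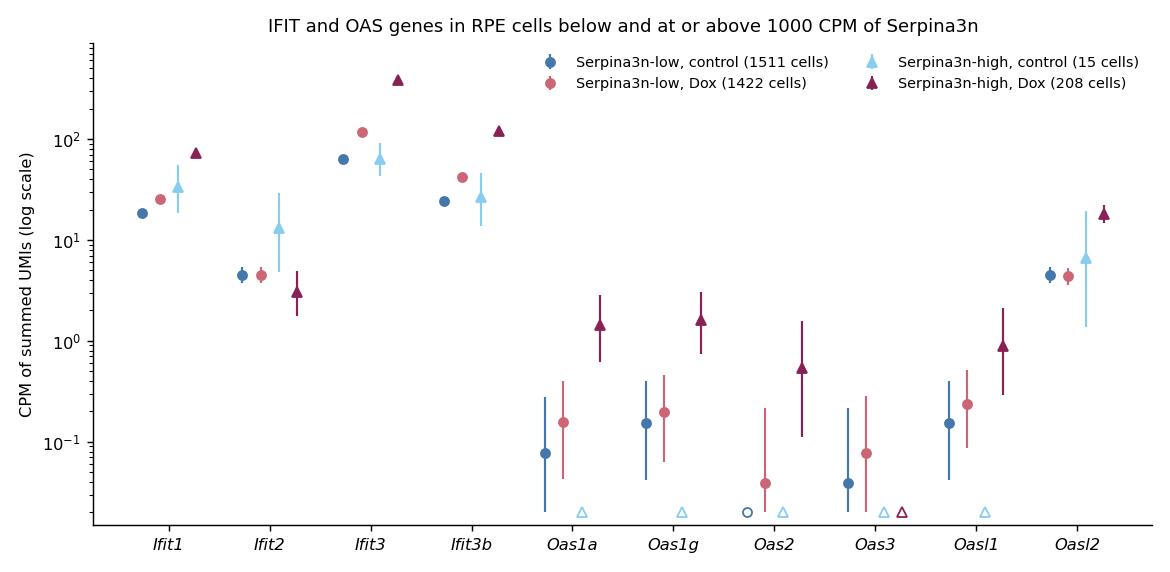
Level of each IFIT and OAS gene (CPM of summed UMIs, log scale) in Serpina3n-low (circles) and Serpina3n-high (triangles) RPE cells of each library, with exact Poisson 95% intervals cut at the lower edge of the axis. Open symbols mark groups with no UMI. Ifit3 reached 384 CPM in the Serpina3n-high Dox cells against 63.4 CPM in the Serpina3n-low control cells. Ifit2 was between 3.05 CPM in Serpina3n-high Dox cells and 13.3 CPM, on 6 UMIs, in Serpina3n-high control cells.

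Dox-injected and control eyes were next compared within Serpina3n-low cells, which made up most RPE cells of each library. Ifit3 was at 63.4 in control against 117 CPM in Dox (log2 ratio, 0.89, 0.80 to 0.98), and Ifit3b at 24.2 and 42.2 CPM (0.80, 0.66 to 0.95). Ifit1 was at 18.3 and 25.4 CPM, a log2 ratio of 0.47 (0.30 to 0.64) that lies under 1.5-fold. Ifit2 was at 4.52 and 4.49 CPM, and Oasl2 at 4.49 and 4.37 CPM, a log2 ratio of -0.04 (-0.43 to 0.35). Here 2 of the same 5 members were at least 1.5-fold higher, beside 2.41% of 14079 genes. The summed log2 ratio was 0.78 (0.71 to 0.85) for IFIT and 0.05 (-0.32 to 0.41) for OAS. Serpina3n-low cells thus showed no OAS difference beyond counting error.

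Within the Dox library, 4 of the 5 members were higher in Serpina3n-high than in Serpina3n-low cells. Ifit3 was at 384 CPM in high and 117 CPM in low cells, a log2 ratio of 1.71 (1.63 to 1.79). Ifit3b was at 120 and 42.2 CPM (1.51, 1.37 to 1.65), and Ifit1 at 72.0 and 25.4 CPM (1.504, 1.32 to 1.69). Oasl2 was at 18.2 and 4.37 CPM, the largest of these ratios at 2.05 (1.65 to 2.46). Ifit2 was at 3.05 and 4.49 CPM, with an interval from -1.38 to 0.19 on the log2 scale. The background was 5.51% of 13111 genes at least 1.5-fold higher in the high cells, where the median log2 ratio of all genes was -0.20.

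Among the scarce OAS genes, Oas1a had 8 UMIs in the 208 high and 4 in the 1422 low Dox cells, or 1.44 and 0.156 CPM. Oas1g had 9 and 5 UMIs. The log2 intervals lay above 0 for each, from 1.30 to 5.39 for Oas1a and from 1.32 to 4.98 for Oas1g. Oasl1, whose protein lacks synthetase activity and is known to hold back translation of Irf7, had 5 and 6 UMIs. Oas3 had 0 and 2 UMIs, and the 0 allows up to 0.539 CPM. Oas2 had 3 and 1 UMIs, the 3 from 1 cell. The summed OAS level was 22.6 CPM in high and 5.07 CPM in low cells, a log2 ratio of 2.16 (1.79 to 2.52), beside 1.61 (1.55 to 1.68) for IFIT. With RPE cells taken from 3 Rpe65 UMIs on, this OAS ratio was -0.01 and the IFIT ratio 1.27. That limit took in 3885 control and 4898 Dox cells, in place of 1526 and 1630. Rpe65 itself was at 1954 CPM in Serpina3n-high and 5499 CPM in Serpina3n-low Dox cells. The summed RPE markers, Rpe65 among them, were at 87383.8 and 106929.0 CPM. From 3 Rpe65 UMIs on, the high Dox cells numbered 497 in place of 208, and the low ones 4401 in place of 1422. Rpe65 was also found outside the RPE, at 194 CPM in control fibroblast-like cells. The part of such cells, and of the lower Rpe65 of high cells, in this change was not tested. Without the cells scored most like doublets, the OAS ratio was 2.88.

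The control library held only 15 Serpina3n-high cells, with 62 IFIT and 3 OAS UMIs. Their IFIT level was 137 CPM (105 to 176), beside 110 CPM in Serpina3n-low control cells, and 1 cell gave 40.3% of the 62 UMIs. The log2 ratio of 0.31 had an interval from -0.08 to 0.67, so this sum did not differ beyond counting error. Dox over control among high cells was 2.08 (1.72 to 2.47) for IFIT and 1.77 (0.19 to 4.07) for OAS. Ifit2 went the other way, at 13.3 CPM on 6 UMIs in control and 3.05 CPM on 17 UMIs in Dox (log2 ratio, -2.12, -3.53 to -0.49). In this comparison 21.26% of 9979 genes were at least 1.5-fold higher in Dox and 14.42% as far lower. With 15 control cells, such intervals do not cover the spread between cells.

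**Figure D2:**
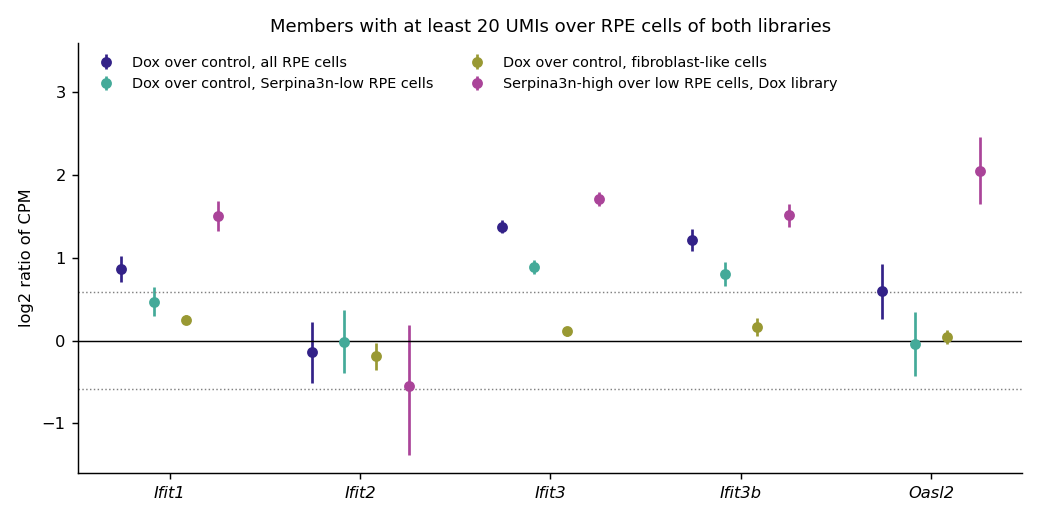
Log2 ratio of CPM for the 5 members with at least 20 UMIs over RPE cells of both libraries, with exact 95% counting intervals. Dotted lines mark 1.5-fold in either direction. Ifit1, Ifit3 and Ifit3b lie above 0 in each RPE comparison, Oasl2 lies at -0.04 within Serpina3n-low cells and at 2.05 between high and low Dox cells, and in fibroblast-like cells all 5 lie between -0.19 and 0.25.

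Finer ranges of Serpina3n, chosen after the data had been seen, were used to ask where in the RPE the IFIT level differed. In Dox the summed IFIT level was 169 CPM in the 780 cells with no Serpina3n UMI, 192 CPM above 0 and under 100 CPM, and 179 CPM from 100 to 300 CPM. It was 394 CPM from 300 to 1000 CPM, 456 CPM from 1000 to 3000 CPM and 620 CPM at 3000 CPM and over. In control it was 99.7 CPM in the 1294 cells with no Serpina3n UMI, then 185, 136 and 116 CPM up to 1000 CPM of Serpina3n. The upper 2 ranges held only 9 and 6 control cells, at 80.1 and 235 CPM. Cells with no Serpina3n UMI thus already differed between the libraries beyond counting error, at similar median depths of 15485.5 UMIs in control and 15749.5 in Dox. From above 0 to 100 CPM the libraries overlapped. Median depth in the other ranges went from 5999 to 34870 UMIs, and its part in these levels was not tested.

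**Figure D3:**
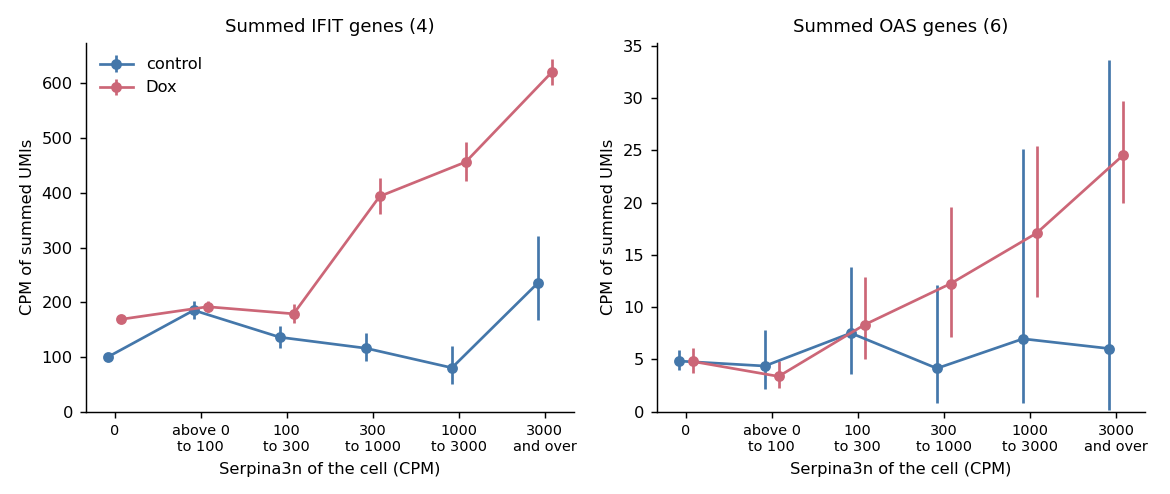
Summed IFIT (left) and OAS (right) level (CPM of summed UMIs) of RPE cells by the Serpina3n CPM of the cell, with exact Poisson 95% intervals. In Dox the IFIT level goes from 169 CPM at no Serpina3n to 620 CPM at 3000 CPM and over and the OAS level from 4.80 to 24.5 CPM, while the 6 control cells at 3000 CPM and over are at 235 CPM of IFIT and 6.035 CPM of OAS.

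IFIT UMIs were spread over many RPE cells. At least 1 IFIT UMI was found in 61.5% of control (59.0 to 63.9) and 73.9% of Dox cells (71.7 to 76.0), and in 92.3% of Serpina3n-high Dox cells. At least 10 IFIT UMIs were found in 2.29% of control, 13.2% of Dox and 49.0% of Serpina3n-high Dox cells. These shares are not corrected for depth, which had a median of 16013.5, 18115.5 and 28244 UMIs in these groups. The highest cell held 88 IFIT UMIs in control and 167 in Dox, and the 10% of cells with the most held 53.6% and 56.9% of all IFIT UMIs. After each cell was thinned to 2000 UMIs, the share with an IFIT UMI was 16.1% of control (14.2 to 18.03) and 27.2% of Dox cells (25.01 to 29.4), with 32 and 41 shallower cells left out. It was 47.3% of Serpina3n-high (40.3 to 54.4) and 24.2% of Serpina3n-low Dox cells (21.97 to 26.55). It was 0 of the 15 Serpina3n-high control cells (interval up to 21.8%), of which 12 held an IFIT UMI before thinning. Among the other cell types it was lowest in smooth muscle-like cells, at 10.2% in control and 6.25% in Dox. For OAS the thinned share was 1.14% of control RPE cells (0.66 to 1.82) and 2.14% of Dox RPE cells (1.49 to 2.98), beside 2.21% and 4.26% in smooth muscle-like cells. The OAS share over all RPE cells was thus no higher than that of smooth muscle-like cells, and how much of it was background was not tested. The OAS share was 4.88% of Serpina3n-high (2.36 to 8.79) and 1.73% of Serpina3n-low Dox cells, and the first was also within the interval of smooth muscle-like cells of Dox (2.40 to 6.93).

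Markers of other cell types were present in the RPE cells at low levels, and those of fibroblasts, melanocytes, macrophages and smooth muscle were lower in Dox. All 13 macrophage or antigen-presenting markers were detected in both libraries, at a summed 411 in control against 191 CPM in Dox RPE cells, beside 55854 and 59200.2 CPM in the cells of that name. Of the 13 fibroblast markers 12 were detected, at 1993 and 1310 CPM, and Kera was at 0. The Serpina3n-high Dox cells held 112 CPM of macrophage or antigen-presenting markers, with Adgre1 at 0, and 506 CPM of fibroblast markers, under the 208 and 1484 CPM of Serpina3n-low Dox cells. Melanocyte markers went the other way, at 2026.3 CPM in Serpina3n-high and 1922.3 CPM in Serpina3n-low Dox cells. How many cells were scored most like doublets was set by the cell number of each library. This took 3428 of 20180 control and 1983 of 15426 Dox cells, a larger share of control. Such cells were 23.5% of control and 11.9% of Dox RPE cells, and 3.37% of the Serpina3n-high Dox cells. Without them the OAS log2 ratio between the libraries was 1.34 in place of 0.73, on 54 in place of 130 control and 190 in place of 256 Dox UMIs, and the IFIT ratio was 1.40 in place of 1.22. The part of other cells' RNA in these ratios was not tested.

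The IFIT genes had UMIs in every cell group, and the order of groups was another one for OAS. Groups were clusters made with 120 genes, the members and listed interferon pathway genes, kept out of the features, and were named from marker lists. The highest summed IFIT level, 509 in control against 639 CPM in Dox, was in a cluster led by Cxcl10, Ccl2 and Cxcl9. Cxcl10, Ccl2 and Cxcl9 were not among the 120 genes kept out. This cluster may therefore not be independent of interferon responses, and its rank is a description. Ifit1 was itself among the 10 leading genes of this cluster. It had no listed marker among them and was left unnamed, and its level of Dcn, a fibroblast marker, was 6478 CPM in control. Next in control came melanocyte-like cells (306 CPM), whose first leading gene was the hemoglobin gene Hbb-bs, 49 Schwann-like cells (286 CPM), another unnamed cluster led by Snhg7os (237 CPM) and fibroblast-like cells (235 CPM). From melanocyte-like cells on, neighbors in this order overlapped. Macrophage or antigen-presenting-like (121 CPM), endothelial-like (121 CPM), NK or T-like (115 CPM) and Serpina3n-low RPE cells (110 CPM) overlapped as neighbors, and smooth muscle-like cells were lowest at 86.5 CPM. Without the cells of highest doublet score, this part of the order changed, with 107.6 CPM in macrophage or antigen-presenting-like, 61.2 CPM in endothelial-like, 48.3 CPM in NK or T-like and 47.9 CPM in smooth muscle-like cells.

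In Dox the Serpina3n-high RPE cells, at 579 CPM, came second after the Cxcl10-led cluster and above melanocyte-like cells at 352 CPM, with intervals apart on both sides. Serpina3n-low RPE cells, at 189 CPM, lay below fibroblast-like cells at 264 CPM and above endothelial-like cells at 122 CPM. For Ifit3 alone the Serpina3n-high Dox cells were first at 384 CPM, above 216 CPM in the Cxcl10-led cluster. For Ifit1 the Cxcl10-led cluster was first in both libraries, at 289 and 362 CPM, and among control groups Serpina3n-low RPE cells were last at 18.3 CPM. In control, Ifit2 was lowest in the same cells, at 4.52 CPM, and highest in melanocyte-like cells, at 27.4 CPM. The last place for Ifit1 and both ends of the order for Ifit2 overlapped the next group.

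**Figure D4:**
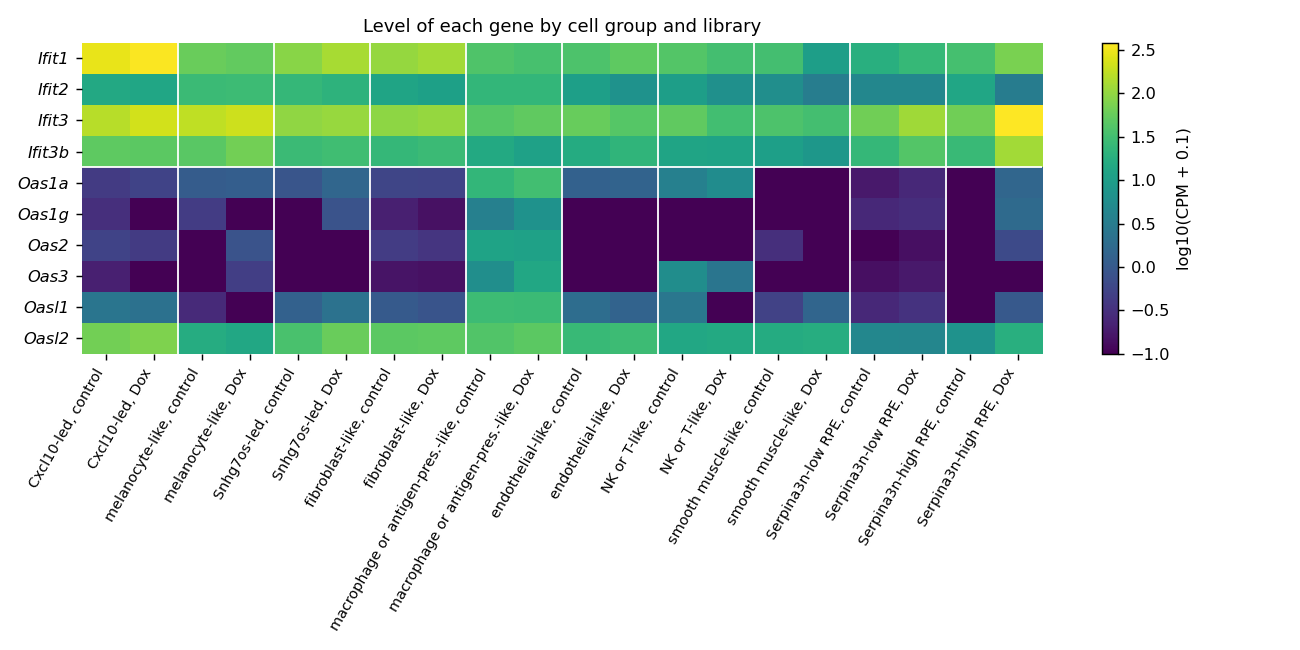
Level of the 10 genes (color, log10 of CPM plus 0.1) in 10 cell groups of each library. Oas1a, Oas1g, Oas2, Oas3 and Oasl1 are brightest in macrophage or antigen-presenting-like cells, Ifit1 in the Cxcl10-led cluster and Ifit3 in Serpina3n-high Dox RPE cells.

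In the larger cell groups outside the RPE the summed IFIT level differed less between the libraries. In fibroblast-like cells, the group with the most cells, none of the 8 members with at least 20 UMIs was 1.5-fold higher in Dox, beside 2.75% of 15305 genes. Ifit1 was at 103 and 122.6 CPM, Ifit3 at 95.2 and 103 CPM, and the summed IFIT log2 ratio was 0.16 (0.13 to 0.20), or -0.21 at a clustering resolution of 0.2, where fewer cells kept the name (4501 control and 3026 Dox IFIT UMIs in place of 13374 and 12259). In the Cxcl10-led cluster none of 6 members was, beside 3.09% of 12741 genes, and the IFIT log2 ratio was 0.33 (0.27 to 0.38). Melanocyte-like cells gave 0.20 (0.09 to 0.32) and macrophage or antigen-presenting-like cells -0.01 (-0.20 to 0.18). The IFIT interval of all RPE cells, 1.16 to 1.29, lay above each of these. Smooth muscle-like cells went the other way, at -0.70 (-1.01 to -0.40), with Ifit1 at 32.0 CPM on 155 UMIs in control and 10.1 CPM on 22 UMIs in Dox. Their IFIT ratio was -0.425 without the cells of highest doublet score, on 47.9 CPM in control and 35.7 CPM in Dox. NK or T-like cells were at -0.48 (-0.83 to -0.14), but at 0.11 without the cells of highest doublet score, on 48.3 CPM in control and 52.1 CPM in Dox. The 84 control and 83 Dox cells of the RPE cluster with under 10 Rpe65 UMIs, which the rule leaves out, held 86.4 and 131 CPM of Ifit3. For OAS the Snhg7os-led cluster (988 control and 568 Dox cells) differed about as much as RPE cells. Its OAS log2 ratio was 0.71 (0.275 to 1.15) on 95 control and 86 Dox UMIs, beside 0.73 in all RPE cells. Of 5 members there, 1 was at least 1.5-fold higher, Oasl2 at 0.69 (0.23 to 1.14), beside 10.64% of 11355 genes. With the interferon genes kept for clustering, its OAS ratio was 0.35.

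The OAS genes had their highest summed level in macrophage or antigen-presenting-like cells, which were 982 control and 585 Dox cells, apart from the 32 Schwann-like cells of Dox, at 149 CPM on 17 UMIs. The summed OAS level there was 114 in control against 139 CPM in Dox, beside 4.94 and 8.21 CPM in RPE cells. Oas1a, an active synthetase, was at 23.8 and 31.3 CPM there, at 0.457 and 0.451 CPM in fibroblast-like cells and at 0.0760 and 0.385 CPM in RPE cells. Oas2 was at 11.9 and 10.98 CPM and Oasl1 at 28.8 and 27.3 CPM, against at most 2.40 CPM for both genes in fibroblast-like cells and the Cxcl10-led cluster. Oas3 was at 5.84 in control against 14.0 CPM in Dox, for a log2 ratio of 1.26 (0.55 to 1.99), and Oas1g was at 3.51 and 6.65 CPM with an interval from -0.07 to 1.93.

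Oasl2 had another pattern, since it was highest outside the macrophage or antigen-presenting-like cells in control. It was at 65.1 CPM in the Cxcl10-led cluster, 48.4 CPM in fibroblast-like cells and 40.5 CPM in macrophage or antigen-presenting-like cells. The lowest value, 4.49 CPM in Serpina3n-low RPE cells, overlapped the next. In Dox the 32 Schwann-like cells had the highest Oasl2 value, 140 CPM, with an interval from 80.0 to 227 CPM that overlapped the next. In a division made after the data had been seen, macrophage or antigen-presenting-like cells with at least 3 UMIs of complement C1q, a macrophage product, had 146 CPM of OAS in control, against 89.1 CPM in the others. The C1q cells had more Oasl1 (40.2 against 19.8 CPM) and Oas2 (18.6 against 6.61 CPM), whereas Oas1a did not differ beyond counting error (24.3 against 23.3 CPM).

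The balance of Ifit3 to Ifit1 differed between the RPE cells and the fibroblast-like cells. Since the size of such a ratio also depends on how well each transcript is captured, it is compared here only between groups. In fibroblast-like cells there were 0.92 Ifit3 UMIs per Ifit1 UMI in control (0.89 to 0.96) and 0.84 in Dox (0.81 to 0.87), and in the Cxcl10-led cluster 0.54 and 0.60. In RPE cells there were 3.41 in control (3.08 to 3.78) and 4.89 in Dox (4.57 to 5.23), with 5.32 in Serpina3n-high Dox cells. The cluster named melanocyte-like had 3.01 and 3.94. These cells also held RPE RNA, with Rpe65 at 519 and 1442 CPM, beside 194 and 269 CPM in fibroblast-like cells, and Serpina3n at 679 CPM in Dox. At a resolution of 0.2 the name was kept by 1261 of the 2156 control and 764 of the 1998 Dox cells, and a cluster of 2248 cells led by hemoglobin genes formed. The part of RPE RNA and of this mixture in their ratio was not tested. The intervals of RPE and fibroblast-like cells were far apart in both libraries. Smooth muscle-like cells had 1.19 in control and, on 70 and 22 UMIs, 3.18 in Dox (1.95 to 5.40). The ratio of Ifit3 to its near-copy Ifit3b was 2.62 in control RPE cells and 3.92 in control fibroblast-like cells, and was 4.54 in the Cxcl10-led cluster of Dox.

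**Figure D5:**
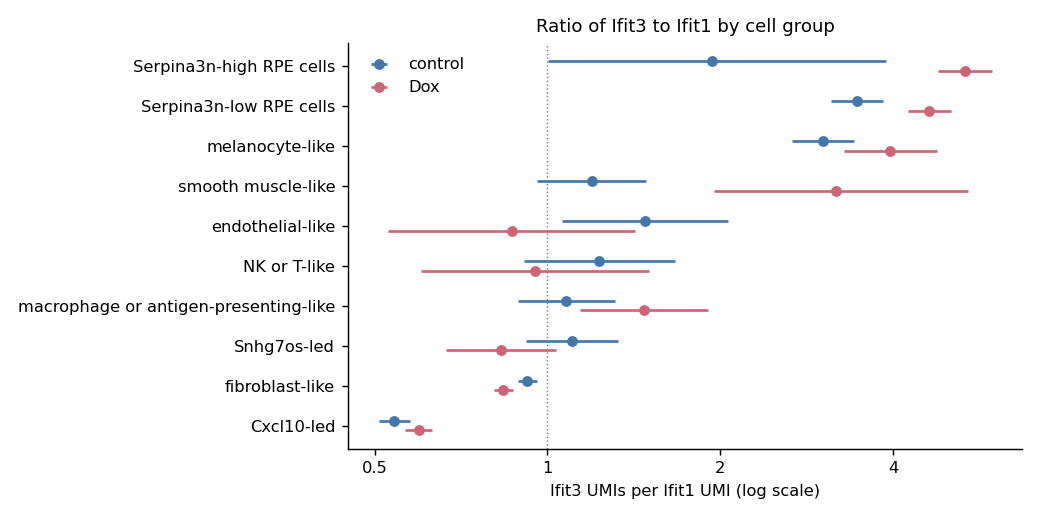
Ifit3 UMIs per Ifit1 UMI (log scale) in each cell group and library, with 95% counting intervals. Serpina3n-low RPE, Serpina3n-high Dox RPE and melanocyte-like cells lie at 3.01 to 5.32, as do smooth muscle-like cells of Dox at 3.18, the 15 Serpina3n-high control cells lie at 1.93, and fibroblast-like cells and the Cxcl10-led cluster lie under 1.

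Other genes of the pathway were counted by role in all RPE cells. Of the 21 interferon ligand genes none had 20 UMIs over both libraries. Ifnb1, interferon beta, had no UMI in RPE cells of either library, and Ifng, the interferon of T and NK cells, had 3 in control and 1 in Dox. Outside the RPE both were found. Ifnb1 had 119 UMIs in control and 25 in Dox macrophage or antigen-presenting-like cells (23.2 and 8.32 CPM). Ifng had 157 and 75 UMIs in NK or T-like cells (79.3 and 58.7 CPM). None of the 9 receptors and kinases was 1.5-fold apart, beside 2.93% of all genes higher and 7.44% lower in Dox. Ifnar2, a subunit of the type I receptor, was at 66.8 in control against 70.5 CPM in Dox, and at 111 CPM in Serpina3n-high against 61.7 CPM in Serpina3n-low Dox cells.

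Among the transcription factors, Stat2, Irf9 and Irf7 were at least 1.5-fold higher in Dox and Irf5 was lower. Irf9 was at 16.99 in control against 30.3 CPM in Dox (log2 ratio, 0.83, 0.67 to 0.998). Irf3, which acts before interferon is made, was at 29.6 and 29.8 CPM. Irf1, which also answers interferon gamma, was at 102 and 82.2 CPM, and was lower in Serpina3n-high Dox cells, at 44.02 CPM against 90.5 CPM in low cells. Of 10 sensors measured, the RNA helicases Ddx58, Ifih1 and Dhx58 were higher, and Cgas, Tmem173 and Zbp1, of the response to DNA and nucleic acid in the cytoplasm, were lower, beside 2.93% of all genes higher and 7.44% lower.

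Pde12, which degrades the OAS product, was at 21.2 in control against 19.8 CPM in Dox. Of the 6 brakes, 1 was at least 1.5-fold higher and 0 were as far lower, beside 2.93% and 7.44% of all genes. The higher one was Usp18, which removes Isg15 and blocks the receptor, while Socs3 was at 113 and 82.8 CPM.

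Of 37 other interferon-induced effectors measured in all RPE cells, 13 were at least 1.5-fold higher and 4 lower, with a median log2 ratio of 0.46, beside the same 2.93% and 7.44% of all genes. In Serpina3n-low cells 8 of 37 were higher and 3 lower, beside 2.41% and 6.18% of all genes. Between Serpina3n-high and Serpina3n-low Dox cells 23 of 36 were higher and 5 lower, with a median of 0.90, beside 5.51% and 23.35% of all genes. In fibroblast-like cells 0 of 38 were higher and 2 lower, beside 2.75% and 5.09% of all genes. Gbp3, a guanylate-binding GTPase, was at 19.5 in control against 58.4 CPM in Dox RPE cells (log2 ratio, 1.58, 1.44 to 1.73). Rtp4 was at 15.5 and 36.2 CPM (1.23, 1.06 to 1.39), Ifi27, a mitochondrial protein, at 251 and 531 CPM (1.08, 1.04 to 1.12), and Bst2, which tethers budding virus, at 233 and 474 CPM (1.02, 0.98 to 1.07).

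Not all effectors followed this direction. Over all RPE cells Isg15, the ubiquitin-like modifier, was at 35.5 in control against 35.8 CPM in Dox, for a log2 ratio of 0.01 (-0.12 to 0.14), and Ifitm2 at 325 and 289 CPM. Isg15 was nonetheless among the effectors at least 1.5-fold higher in Serpina3n-high than in Serpina3n-low Dox cells. Ifitm3, which blocks virus entry, was at 195 and 187 CPM in Serpina3n-low cells and at 641 CPM in Serpina3n-high Dox cells. Of 32 effector genes with a promoter in the table, 17 hold the response element core.

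Across 21 cell group and library combinations of at least 50 cells, the members' patterns are described by Pearson correlations of log2 of CPM plus 1. Ifit3 and Ifit3b had r = 0.96, and Oas1a, Oas2 and Oas3 had r = 0.75 to 0.91 with each other. Ifit3 had r from -0.42 to 0.03 with Oas1a, Oas1g, Oas2, Oas3 and Oasl1, and Oasl2 was closer to Ifit1 (r = 0.74) than to Oas1a (r = 0.32). The values of Oas1a, Oas1g, Oas2, Oas3 and Oasl1 rest on few groups, since these genes were low or 0 in most. Oas2 was at 11.9 and 10.98 CPM in macrophage or antigen-presenting-like cells, and at most 0.724 CPM in any other group. The 21 combinations share libraries and differ in depth, with medians from 763 UMIs (melanocyte-like, Dox) to 28244 UMIs (Serpina3n-high RPE, Dox). The Serpina3n-high control cells and the Schwann-like cells of both libraries were too few to enter.

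Among the 10 genes whose pattern was most like the mean of all members, out of 10327, were Ccl8, Pak1, Zmynd15, Apobec1, Ifih1, Gm2a, Csf2ra, Rasgrp4 and Ifnar2, with r from 0.86 to 0.81. Comparisons with 1 family alone were added after the data had been seen. The 10 genes most like the IFIT genes alone were Fuca1 (r = 0.85), Aspa, Plbd2, Gga2, Scd1, Xaf1 (0.78), Lamp2, Cox6b2, Sdc3 and Usp18 (0.75). Il1r2, H2-DMa, Fcgr1 and Ifi30 were among the 10 most like the OAS genes alone, with r from 0.93 to 0.95.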

How the data were processed

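Single-cell 5′ RNA libraries of the control and Dox groups were analysed from the count matrices. The deposited values are raw counts of UMIs per gene and cell, made by the authors with Cell Ranger 4.0.0 against mm10, without normalization. The annotation version is not given in the sources used here. No replicate library exists, and pooled mice cannot be told apart.

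A cell was kept if it had more than 500 UMIs, between 200 and 6000 genes, a ratio of log10 genes to log10 UMIs of more than 0.8, and less than 20% mitochondrial UMIs. The total was 115611226 UMIs in control and 99273166 in Dox. In R 4.3.3, Seurat 5.3.0 with sctransform 0.4.2 and SeuratObject 5.2.0 clustered all cells by SCTransform, integration on 3000 features less 120 members and interferon genes, which left 2945 of those chosen, 40 components and a resolution of 0.1. A cluster was named when 3 markers of a list reached 10 CPM and at least 1 was among its 10 leading genes by fold over other cells at 50 CPM or more. RPE cells were taken out of the clusters first. Scrublet (scanpy 1.11.5) called 0 control and 1134 Dox cells, so it had not worked in control. Doublets were kept, and an alternative left out the 3428 control and 1983 Dox cells with the highest scores, set by 0.8% per 1000 cells.

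UMIs were summed per group and divided by all UMIs of the group (CPM). The 95% intervals are exact Poisson for levels, Clopper-Pearson for shares and, for a log2 ratio, the conditional binomial form. A count of 0 was read as allowing 3 counts. Higher and lower mean at least 1.5-fold, among genes with at least 20 UMIs over both sides, with no test. The ratio step was tested on simulated data for Dox over control in all RPE cells (14215 genes). Named genes were all members, per pathway list the 4 genes (12 effectors) with the most UMIs in RPE cells, the 10 genes most like the members, and markers. Stat2, Irf7, Irf5, Dhx58, Ifih1, Cgas, Tmem173, Zbp1 and Usp18 are named as the ones counted. The named genes most like the OAS family were picked from their 10 after their values were seen. Oas1b, Mx1 and Mx2 were not analysed here, and some genes that these rules name are not reported here. Positions are of GENCODE vM21 and promoters of RefSeq. Python 3.11.15, numpy 2.4.6, scipy 1.17.1, pandas 2.3.3 and matplotlib 3.10.9 were used. The members and lists were chosen with earlier results of these data known. Alternatives were other cell limits, Rpe65 and Serpina3n limits, thinning, centring, doublet removal, clustering with the interferon genes or at a resolution of 0.2, and other gene minimums and folds.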

Additional observations from a re-analysis of the deposited data

How the results depend on the processing

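No paired analysis was possible because each condition has 1 library. Of 119 values of the main comparisons under an alternative, 88 moved by less than their counting error and 30 moved further, and 1 that was past the 1.5-fold limit changed direction. Several that were under this limit also changed sign, such as OAS in Serpina3n-low cells (0.05, lowest -0.18 with at least 20 Rpe65 UMIs) and OAS in high over low control cells (0.43, lowest -0.97 with 3). In each case the cause was not tested. With 3 Rpe65 UMIs the cells taken as RPE numbered 3885 in control and 4898 in Dox. For IFIT in all RPE cells, the log2 ratio was 1.07 as a mean over cells, 1.04 thinned to 2000 UMIs, 0.89 with at least 3 Rpe65 UMIs and 1.40 (1.395) without the highest doublet scores. In Serpina3n-low cells these last 3 gave 0.71, 0.64 and 0.89. Among Serpina3n-high cells, a division at 2000 CPM gave 1.68 (1.675) and the doublet limit 2.80. High over low control cells gave -0.24 with 3 Rpe65 UMIs, -0.10 (-0.095) divided at 500 CPM, 0.77 at 2000 CPM and -0.25 (-0.246) without the highest doublet scores. High over low Dox cells gave 1.54 thinned, 1.81 centred on all genes, 1.27 (1.265) with 3 Rpe65 UMIs and 1.52 (1.515) divided at 500 CPM. OAS in all RPE cells gave 0.40 with 3 Rpe65 UMIs and 1.34 without the highest doublet scores, and in Serpina3n-low cells 0.55 thinned. OAS in high over low Dox cells gave 1.56 as a mean over cells, 1.38 thinned, 2.61 with at least 20 Rpe65 UMIs, 2.70 in the RPE cluster alone, 2.88 without the highest doublet scores, and -0.01 (-0.009) with 3 Rpe65 UMIs. The genes at least 1.5-fold higher in all RPE cells, 416, numbered 132 at 100 UMIs per gene, 2561 at 1 UMI, and 141 at 2-fold. At 2-fold, 6 pathway effectors were higher, and 5 of the 10 genes most like the members remained among genes at 100 CPM in a group. In single cell types, 15 of 161 values moved. The small IFIT ratio of fibroblast-like cells went from 0.16 to -0.21 at a resolution of 0.2. That of NK or T-like cells went from -0.48 to 0.11 without the highest doublet scores. The OAS ratio of macrophage or antigen-presenting-like cells went from 0.28 to -0.10 thinned to 2000 UMIs. The lack of cell limits was not run by cell type. The OAS genes other than Oasl2 are limited by depth in RPE cells.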
